A study of Homo sapiens with 60 samples.

Results

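The genes described here encode the working parts of the lysosome: 24 hydrolases and their cofactors, 7 lysosomal membrane and sorting proteins, and 9 subunits or accessory proteins of the vacuolar proton pump. They were taken by name from a list and matched to the gene IDs of the count table, not chosen by their measured values. Earlier results of these data were known when the genes were chosen. All 40 were found among the 60675 genes of the table, and all 40 were among the 16517 genes with enough reads to be tested.

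Lysosomal hydrolases break down proteins, glycans, glycolipids, sphingolipids and cholesteryl esters in an acid compartment, and the vacuolar proton pump, made of a membrane V0 sector and a cytosolic V1 sector, keeps it acid. Most hydrolases carry a mannose 6-phosphate tag and reach the lysosome through the receptors M6PR and IGF2R, while heavily glycosylated membrane proteins such as LAMP1 and LAMP2 line its wall. The transcription factors TFEB, TFE3 and MITF, which mTORC1 holds in the cytoplasm of fed cells, raise many of these genes together through a palindromic E-box known as the CLEAR element. Wortmannin is an inhibitor of phosphoinositide 3-kinases.

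The cells were HepG2, a line from a human liver carcinoma, and their RNA was sequenced 24 h after treatment. The 60 libraries form 20 groups of 3. The vehicle group received DMSO, given as 0.1% in the sample labels and as 2% in the series' design text, and the positive control received wortmannin at 10 µM. Water extracts of Aucklandiae Radix, Zizyphi Semen, Longan Arillus, Schisandrae Fructus and Liriopis seu Ophiopogonis Tuber were used at 500 (high), 100 (medium) and 20 (low) µg/mL, and an extract of Polygalae Radix at 450, 90 and 18 µg/mL. The design text says that top doses were lowered to the concentration that inhibits 20% where this lay under 500 µg/mL, and that samples failing for low RNA concentration were left out. All titles name the same batch, but the codes of the samples form 5 sets. Vehicle and wortmannin each have their own, and the other 3 hold Schisandrae with Liriopis, Zizyphi with Longan, and Aucklandiae with Polygalae. No source says what these sets mean, so in every comparison with the vehicle the treatment and the set cannot be told apart. High against low doses of one extract, and the high doses of both extracts of a set, were therefore also compared. Nothing in the labels tells whether the 3 replicates are separate cultures; the spread behind the p-values is that of these samples alone and may be technical.

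Libraries held 20.21 to 36.41 M assigned reads, with a median of 25.76 M. Hepatocyte genes were abundant in all groups, with group means of 6134.1 to 8015.4 CPM (read counts scaled to the size of the library) for ALB and 387.3 to 476.7 CPM for HNF4A. Of the 8 hepatocyte genes on the marker list TTR varied the most between groups, from 53.43 to 136.6 CPM, followed by AFP, from 1665.8 to 3132.8 CPM. The leukocyte genes PTPRC and CD3E were at 0 in all groups, while LYZ, on the same marker list, stood at 884.5 to 1628.4 CPM. In group means over 3 libraries, the fibroblast genes COL1A1, COL3A1, DCN and LUM did not pass 1.93, 0.527, 0.163 and 0.0307 CPM, and the endothelial genes PECAM1, VWF and CDH5 did not pass 4.32, 1.12 and 0.597 CPM. Replicate 3 of low-dose Aucklandiae was the highest single library for COL1A1 (3.58 CPM), COL3A1 (1.55 CPM) and DCN (0.490 CPM, listed at 0 in every other library), and without it the low dose against the vehicle still called GLA (0.34 on the log2 scale) and FUCA2 (0.18) but not PSAP (0.17, edgeR adjusted p = 0.076). In 4 libraries (replicate 1 of the vehicle and of low-dose Liriopis, replicate 2 of low-dose Schisandrae, replicate 3 of medium-dose Aucklandiae) genes rich in G and C stood low: the slope of log2 deviations on GC content was -0.81 or lower, against -0.67 or higher in the other 56. Some results are given with and without these libraries, but not every result that they alter. A fit without them lost 39 of 185 calls of lysosomal genes over all comparisons. In bulk RNA, a change in the number of cells of a kind and in RNA per cell cannot be told apart.

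RefSeq promoters (GRCh38.p14, 250 bases before to 50 after the start site) were at hand for 29 of the 40 genes. The CLEAR core TCACGTGA stood in 6 of them (20.7%), on either strand, against 1.04% of 27305 promoters. The plain E-box CACGTG, which lies inside the CLEAR core, stood in 9 (31%) against 7.43%. The core of the antioxidant response element, TGACNNNGC, stood in 12 (41.4%) against 13.6%. A match is a string of letters and no evidence of binding. The windows below show upstream CLEAR cores (further ones of LAMP1 and MCOLN1, at 2 and 15 bases before the start site, are left out because their windows run past it), and for NEU1 and CTSD the E-box, in capitals, because these genes were among those that moved under Polygalae or Aucklandiae; ATP6V0D1, which did not, is shown beside them. Each reads 5′ to 3′ on the gene's strand, with the position of the first capital before the start site.
IGF2R, chr6:159968939-159968966, plus strand, 133 bases before: cgcgctgcgcTCACGTGAcccgggcctg
IGF2R, chr6:159968997-159969024, plus strand, 75 bases before: aacaagggagTCACGTGAgcggggggcg
IGF2R, chr6:159969043-159969070, plus strand, 29 bases before: cgggcggctgTCACGTGAcgcggttccg
LAMP1, chr13:113297200-113297227, plus strand, 29 bases before: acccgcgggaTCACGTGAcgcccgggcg
MCOLN1, chr19:7522572-7522599, plus strand, 42 bases before: ccagaggcggTCACGTGAggggctctgg
GAA, chr17:80101494-80101521, plus strand, 77 bases before: ggaggccgcgTCACGTGAcccaccgcgg
GAA, chr17:80101539-80101566, plus strand, 32 bases before: ctcccgccggTCACGTGAcccgcctctg
CTSA, chr20:45891299-45891326, plus strand, 26 bases before: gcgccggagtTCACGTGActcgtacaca
ATP6V0D1, chr16:67481200-67481227, minus strand, 60 bases before: ccccttatggTCACGTGAggcgcttgcg
NEU1, chr6:31862932-31862957, minus strand, 126 bases before: gctgcgtgatCACGTGggaggagatg
CTSD, chr11:1763959-1763984, minus strand, 47 bases before: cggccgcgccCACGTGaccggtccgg

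Values below are CPM after scaling of library sizes, as mean ± SD of 3 libraries, and they are compared between groups for one gene, never between genes. A gene is called where the adjusted p of the edgeR quasi-likelihood test, taken over all tested genes of that comparison, is under 0.05. Across the 20 groups the ratio of the highest to the lowest group mean had a median of 1.3 over the lysosomal genes, against 1.39 over all tested genes with reads in every group. It was above 1.5 for 7 genes, and it reached 2.41 for GLA, leaving out CTSZ, whose group means were all under 0.4 CPM. Of the 40 genes, 34 were called higher than the vehicle in at least 1 of 19 comparisons, 11 were called lower in at least 1, 9 were called both ways and 4 were never called. Of all tested genes 31.5% were called higher in at least 1 of these comparisons, 29.8% lower in at least 1, 6.23% both ways and 44.9% in none. Group means were highest under wortmannin for 15 genes, under high-dose Aucklandiae for 10 and under a dose of Polygalae for 12. These counts include ATP6V0D1, which was never called, and were not made over all tested genes. Of all tested genes, 32.6% were called under wortmannin, 26.1% under high-dose Aucklandiae and 11.7 to 20.1% at the doses of Polygalae.

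Summed over the 40 genes, CPM was 4883 ± 139 in the vehicle, 5733 ± 17.8 under wortmannin, 5713 ± 39 under high-dose Aucklandiae and 5745 ± 27.1 under low-dose Polygalae. Every library of these 3 treated groups lay above every vehicle library, the highest of which stood at 4965. This also held at every dose of Polygalae, Zizyphi and Aucklandiae. It held too at the medium and high doses of Schisandrae and the high and low doses of Longan. The vehicle had the lowest mean sum of the 20 groups. At the medium and high doses of Polygalae the sum was 5557 ± 164 and 5524 ± 80.8. The sums of Liriopis, Schisandrae, Longan and Zizyphi at all doses and of Aucklandiae at its lower doses lay between 4932 ± 88.9 (low-dose Liriopis) and 5168 ± 31 (high-dose Zizyphi). These sums are weighted towards abundant genes and carry no test. The share of reads on mitochondrial protein-coding genes was 13 to 16.1% in the vehicle libraries, 10.5 to 11.3% under wortmannin, 9.57 to 9.98% under high-dose Aucklandiae and 7.06 to 11.5% over the 3 doses of Polygalae. Over the 3 doses of Liriopis, where no lysosomal gene was called, it was 9.56 to 12.5%. Its part in the values was not tested.

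**Figure D1:**
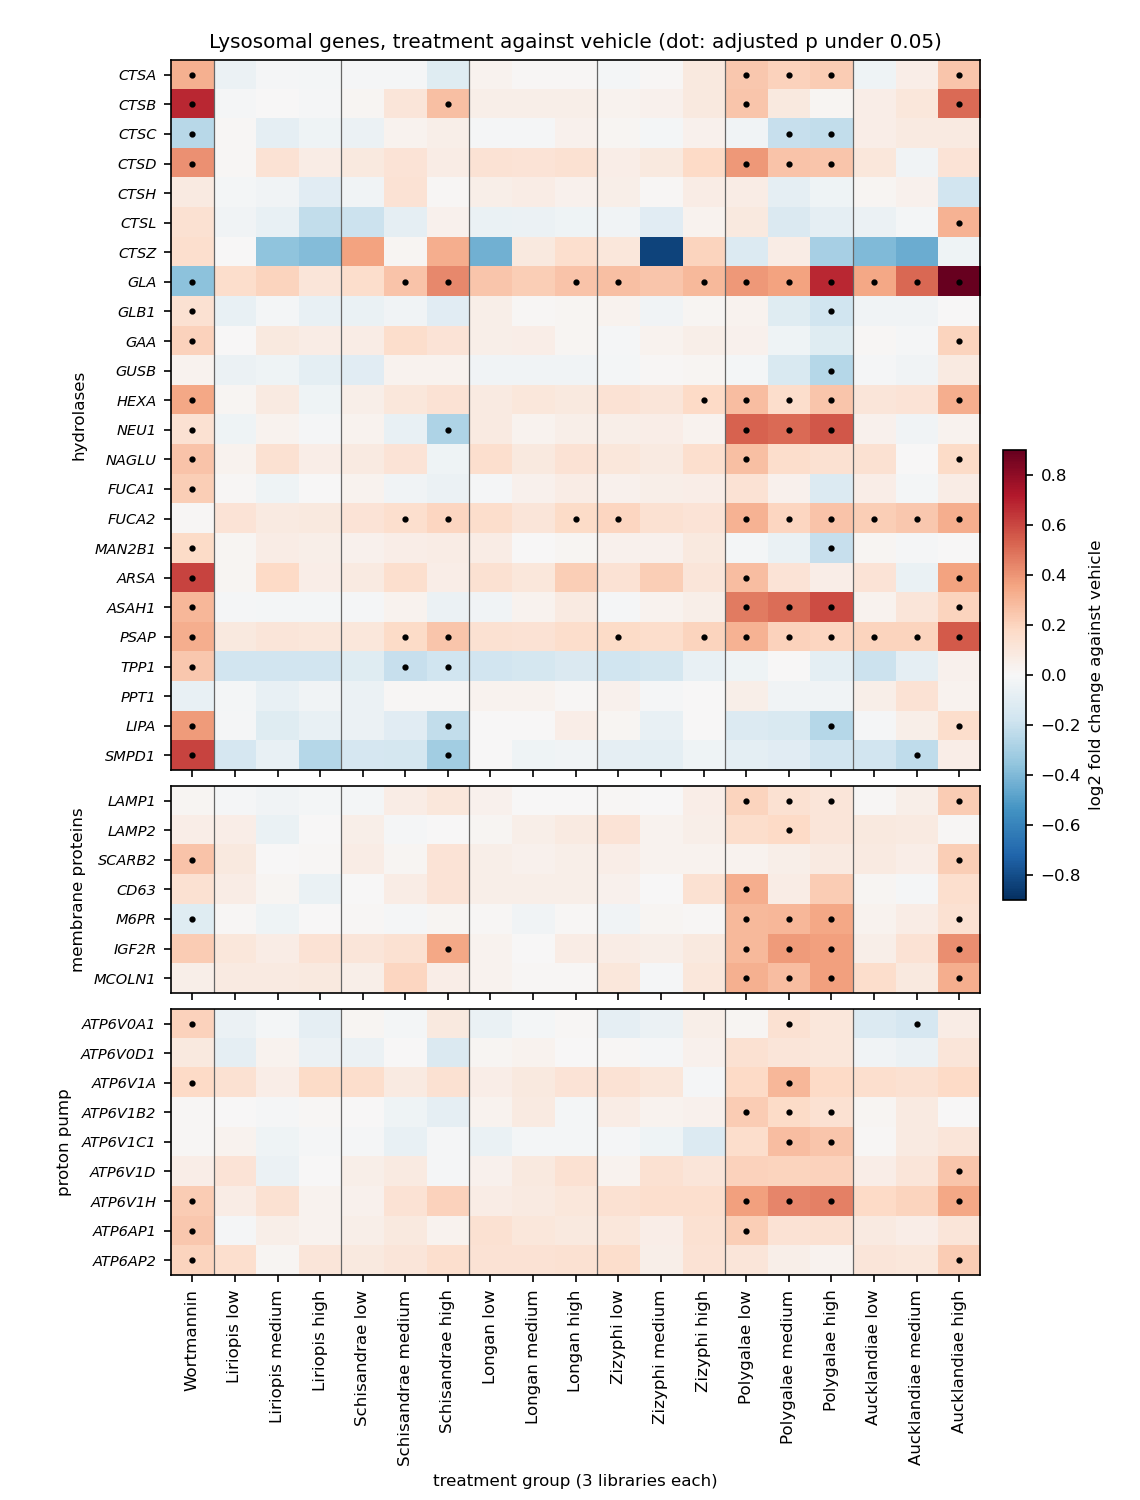
Log2 fold change of each of the 40 lysosomal genes (rows, in 3 panels by role) against the vehicle in 19 treatment groups (columns, 3 libraries each); red is higher, blue is lower, and a dot marks an adjusted p under 0.05. Dots gather in wortmannin (25 genes), the 3 Polygalae doses (19, 19 and 20) and high-dose Aucklandiae (20), and GLA, FUCA2 and PSAP carry the longest rows of dots.

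Under wortmannin 25 of the 40 genes were called (22 up, 3 down), against 32.6% of all tested genes (16.4% higher, 16.2% lower). Most of the calls were hydrolases: 16 rose, 2 fell and 6 were not called, with a median log2 fold change of 0.22, against 0.008 over all tested genes. Proteases, sphingolipid hydrolases and the acid lipase were among those that rose. Of the membrane proteins 1 rose and 1 fell (median 0.06), and 5 of 9 pump genes rose with none lower (median 0.18).

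CTSB, the cysteine protease cathepsin B, had the largest log2 fold change of the called genes. Its libraries read 467, 490.7 and 477.6 CPM under wortmannin and 284.9, 310.8 and 303.2 CPM in the vehicle. All 3 treated libraries lay above all 3 vehicle libraries, a log2 fold change of 0.68 ± 0.04 (SE), edgeR adjusted p = 1.1e-17. SMPD1, the acid sphingomyelinase, read 28.86, 28.52 and 28.62 CPM against 18.18, 20.15 and 18.12 CPM. The treated libraries lay close together and well clear of the vehicle, with a log2 fold change of 0.61 ± 0.06 and an adjusted p of 1.8e-10. ARSA, the sulfatase that acts on the myelin lipid sulfatide, rose by 0.61 ± 0.08 on the log2 scale, from 21.63 ± 1.75 to 33.01 ± 1.05 CPM (adjusted p = 1.3e-08). PSAP, the precursor of the saposins that present sphingolipids to their hydrolases, rose from 335.3 ± 18.6 to 421.3 ± 4.79 CPM (log2 0.33 ± 0.05). The aspartic protease CTSD rose by 0.41 ± 0.06, and HEXA, the alpha subunit of beta-hexosaminidase, by 0.35 ± 0.05. CTSD shares 41.7% of its exon length with AC068580.4 on its own strand and 15.8% with AC068580.3 on the opposite strand, so its counts are uncertain; in the vehicle these partners stood at 0.04 and 0.262 CPM. The same holds for HEXA (10.1% with AC009690.2), NAGLU (12.6% with AC067852.1) and MAN2B1 (13.1% with AC010422.3), and CTSL and FUCA1 have pseudogenes. The wortmannin calls of CTSB, SMPD1, ARSA, PSAP, CTSD and HEXA held in each fit without one library and under every other setting tried.

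GLA and CTSC were the hydrolases that fell under wortmannin. GLA, alpha-galactosidase A, which clears globotriaosylceramide, read 12.84, 11.07 and 10.55 CPM under wortmannin against 14.22, 15.07 and 15.2 CPM in the vehicle, with no overlap (log2 fold change -0.37 ± 0.07, adjusted p = 9.5e-05). CTSC, the dipeptidyl peptidase that activates granule proteases in leukocytes, went from 104.3 ± 0.127 to 87.48 ± 2.88 CPM (log2 fold change -0.25 ± 0.06, adjusted p = 0.00033). Wortmannin gave the lowest group mean of all 20 groups for both genes.

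Among the membrane proteins SCARB2, the receptor LIMP-2 that carries glucocerebrosidase to the lysosome, rose from 73.03 ± 2.57 to 87.17 ± 2.19 CPM (log2 0.26 ± 0.05, adjusted p = 3.1e-05). M6PR, the cation-dependent mannose 6-phosphate receptor, fell from 109.8 ± 3.39 to 102 ± 0.411 CPM (log2 -0.11 ± 0.03, adjusted p = 0.0085). The M6PR call was lost without vehicle replicate 2 (log2 -0.09), without the filter on low counts (-0.11) and in a fit of the 6 libraries alone (-0.11). M6PR also shares 29.3% of its exon length with PHC1 on the opposite strand, and the strand setting of the authors' counting is not given in the sources used here, so its values are uncertain; PHC1 was called higher under wortmannin (log2 0.19, adjusted p = 0.03).

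The pump genes that rose under wortmannin were spread over both sectors. ATP6V0A1, a membrane-sector subunit, rose by 0.21 ± 0.04 on the log2 scale (adjusted p = 0.00013). The accessory proteins ATP6AP1 and ATP6AP2 rose by 0.24 ± 0.05 and 0.20 ± 0.06. ATP6V1H, a regulatory subunit of the cytosolic sector, rose by 0.23 ± 0.08 (adjusted p = 0.022). The ATP6AP2 call was lost without wortmannin replicate 1 (0.16). The ATP6V1H call was lost without vehicle replicate 1 (0.18) or 3 (0.22), without wortmannin replicate 2 (0.17), without the filter (0.22) and without the 4 libraries low in GC-rich genes (0.19). Without those 4 libraries, 21 of the 40 genes were called.

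Under high-dose Polygalae 20 genes were called (15 up, 5 down), against 20.1% of all tested genes (10.2% higher, 9.94% lower). The hydrolases split: 8 rose and 5 fell, with a median log2 fold change of -0.04 against 0.006 over all tested genes. Both sorting receptors rose, as did the calcium channel MCOLN1, and 4 of 7 membrane proteins (median 0.23) and 3 of 9 pump genes (median 0.14) were called, all higher.

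GLA and ASAH1 had the largest log2 fold changes. GLA read 23.03, 22.72 and 25.62 CPM at the high dose of Polygalae against 14.22, 15.07 and 15.2 CPM in the vehicle. The groups did not overlap, and the log2 fold change was 0.68 ± 0.07 (edgeR adjusted p = 1.9e-10). ASAH1, acid ceramidase, which splits ceramide into sphingosine and fatty acid, read 135.5, 140.5 and 144 CPM against 95.53, 94.44 and 89.66 CPM. Again no library overlapped (log2 0.59 ± 0.07, adjusted p = 6.4e-09). NEU1, the lysosomal sialidase, had the smallest p of the hydrolases: it rose from 319 ± 15.4 to 470.8 ± 14.2 CPM (log2 0.56 ± 0.05, adjusted p = 2.6e-13). FUCA2, a fucosidase, and HEXA rose by 0.26 ± 0.04 and 0.25 ± 0.05. GUSB, the beta-glucuronidase that acts on glycosaminoglycans, fell from 41.82 ± 0.835 to 34.98 ± 2.53 CPM (log2 -0.26 ± 0.06, adjusted p = 0.00063). The other called falls were MAN2B1 (-0.21), LIPA (-0.26), CTSC (-0.22) and GLB1 (-0.18), an alpha-mannosidase, the acid lipase, a dipeptidyl peptidase and the acid beta-galactosidase. The GLB1 call was lost without Polygalae high-dose replicate 1 (-0.15) and without the filter (-0.18). GUSB has pseudogenes, and FUCA2 shares 13.6% of its exon length with VDAC1P8 and 10.8% with AL031320.2 on the opposite strand, so their counts are uncertain.

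M6PR rose from 109.8 ± 3.39 to 139.5 ± 4.3 CPM at the high dose of Polygalae (log2 0.35 ± 0.03, adjusted p = 1.3e-11). PHC1, which shares its exons, was not called (log2 0.16, adjusted p = 0.11). MCOLN1, the channel that releases calcium from the lysosome, rose by 0.37 ± 0.08, and IGF2R, the cation-independent mannose 6-phosphate receptor, by 0.37 ± 0.09. ATP6V1H rose from 21.23 ± 0.874 to 28.96 ± 1.12 CPM (log2 0.45 ± 0.08, adjusted p = 1.9e-05). ATP6V1C1 and ATP6V1B2, further cytosolic-sector subunits, were called at 0.25 ± 0.06 and 0.14 ± 0.05. The ATP6V1B2 call was lost without any one vehicle library (0.13 to 0.14) and without Polygalae replicate 1 (0.12) or 2 (0.13).

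The lower doses of Polygalae called nearly as many genes. At the medium dose 18 rose and 1 fell (11.7% of all tested genes called, 5.93% higher and 5.73% lower), and at the low dose 19 rose and none fell (15.6% called, 8.63% higher and 7.01% lower). NEU1 stood at 462 ± 8.61, 455.5 ± 26.3 and 470.8 ± 14.2 CPM at 18, 90 and 450 µg/mL, so the 3 means lay closer together than the SD of the medium-dose group. ASAH1 stood at 129.2 ± 3.03, 132.2 ± 8.77 and 140 ± 4.28 CPM, and M6PR at 134.3 ± 2.99, 134.8 ± 3.13 and 139.5 ± 4.3 CPM. ATP6V1H was also called at all 3 doses (log2 0.37, 0.44 and 0.45). In a fit of the 6 libraries alone the medium dose gave 4 calls, and GLA, CTSD, PSAP and IGF2R were among those lost (log2 0.36, 0.26, 0.21 and 0.38).

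The high and low doses of Polygalae, which share a code set, were compared directly. High against low, 1 gene was higher and 6 were lower, all of them hydrolases, where 3.93% of all tested genes were called (1.23% higher, the remainder lower). CTSB read 303.6, 302.1 and 307.1 CPM at the high dose and 361.1, 355.1 and 350.6 CPM at the low dose, a clean separation (log2 -0.23 ± 0.04, adjusted p = 0.00029). GLA was the gene that rose (0.29 ± 0.07, adjusted p = 0.0049). GUSB and FUCA1, which removes fucose from glycans, were lower by -0.23 ± 0.06 and -0.25 ± 0.06 on the log2 scale. These calls rest on few libraries: the GLA call was lost without high-dose replicate 3 (0.23), the GUSB call without that library (-0.19) or low-dose replicate 2 (-0.20), and the FUCA1 call without high-dose replicate 1 (-0.23) or low-dose replicate 2 (-0.21). Without high-dose replicate 1 or low-dose replicate 2, 3 of the 7 calls were made, and without high-dose replicate 3, 4.

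Under high-dose Aucklandiae 20 genes were called, all of them up, against 26.1% of all tested genes (13.6% higher, 12.5% lower). They were 12 hydrolases (median log2 fold change 0.14, against 0.000 over all tested genes), 5 of 7 membrane proteins (median 0.22) and 3 of 9 pump genes (median 0.11). GLA, PSAP and CTSB had the largest log2 fold changes, and of the other cathepsins CTSL (0.31) and CTSA (0.25) were called and CTSC, CTSD, CTSH and CTSZ were not. At the medium dose 3 genes rose and 2 fell (5.52% of all tested genes called, 3.05% higher and 2.47% lower), and at the low dose 3 rose (4.45% called, 2.19% higher and 2.26% lower).

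GLA reached its highest level of the series here. It read 27.57, 28.22 and 27.12 CPM against 14.22, 15.07 and 15.2 CPM in the vehicle, so the groups were far apart (log2 0.90 ± 0.07, edgeR adjusted p = 1.3e-14). PSAP read 493.4, 493.6 and 482.9 CPM against 315.5, 338.1 and 352.3 CPM, again without overlap (log2 0.55 ± 0.05, adjusted p = 5.5e-13). CTSB rose from 299.6 ± 13.3 to 425.4 ± 7.96 CPM (log2 0.51 ± 0.04, adjusted p = 1.5e-13). FUCA2, HEXA and ARSA rose by 0.33 ± 0.04, 0.33 ± 0.05 and 0.36 ± 0.08. LAMP1, a major glycoprotein of the lysosomal wall, rose from 224.3 ± 8.83 to 262.9 ± 5.02 CPM (log2 0.23 ± 0.04, adjusted p = 1.7e-05). SCARB2 rose by 0.22 ± 0.05 and IGF2R by 0.42 ± 0.09. The called pump genes were ATP6V1H (0.35 ± 0.08), ATP6AP2 (0.23 ± 0.06) and ATP6V1D (0.25 ± 0.08), a subunit of the rotating stalk. The ATP6V1D call was lost without vehicle replicate 1 (0.19), without Aucklandiae high-dose replicate 2 (0.21) and without the 4 libraries low in GC-rich genes (0.19).

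The low and high doses of Aucklandiae share a code set and were also compared. High against low, 15 genes rose and none fell, where 14.9% of all tested genes were called (7.77% higher, 7.14% lower): 10 hydrolases, 4 membrane proteins and 1 pump gene. GLA read 27.57, 28.22 and 27.12 CPM at the high dose and 19.67, 17.72 and 19.08 CPM at the low dose (log2 0.55 ± 0.07, adjusted p = 1.2e-08), with no overlap. CTSB rose by 0.45 ± 0.04 (adjusted p = 1e-11), PSAP by 0.34 ± 0.05 and CTSA, the protective protein that stabilises NEU1 and beta-galactosidase, by 0.29 ± 0.05. LAMP1 rose by 0.22 ± 0.04. CTSA shares 17.7% of its exon length with NEURL2 on the opposite strand, so its counts are uncertain. In the vehicle NEURL2 stood at 4.74 CPM. Against the vehicle NEURL2 was called higher under wortmannin (log2 0.54) and was not called under high-dose Aucklandiae (0.06). The medium dose of Aucklandiae lay between the low and high doses for GLA, at 21.28 ± 0.563 CPM. In a fit of the 6 libraries alone 9 genes were called.

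**Figure D2:**
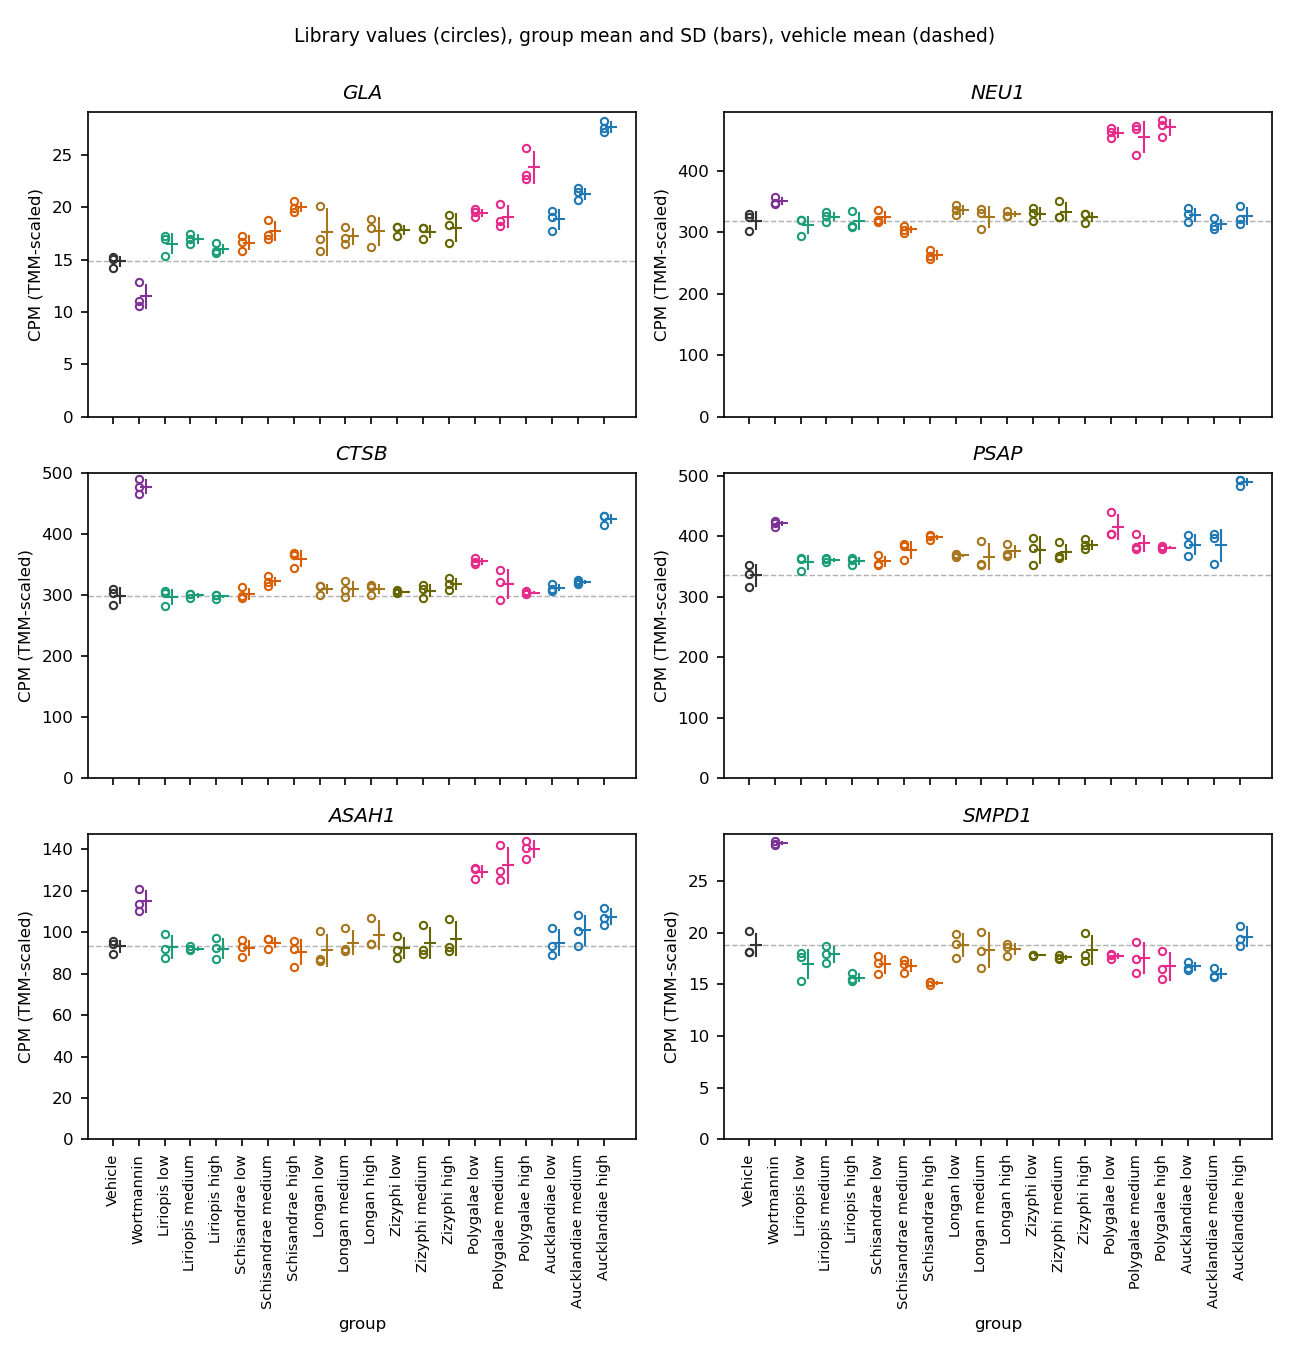
CPM of 6 lysosomal genes in each of the 60 libraries (circles) with the group mean and SD (bars) and the vehicle mean (dashed line), groups on the x axis. GLA climbs with dose for Aucklandiae to 27.64 CPM and is lowest under wortmannin at 11.49 CPM; NEU1 and ASAH1 stand high at all 3 Polygalae doses, and SMPD1 stands high under wortmannin, at 28.67 CPM.

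Polygalae and Aucklandiae share a code set, and their high doses were compared directly, at 450 and 500 µg/mL. The comparison called 20 genes, 4 higher and 16 lower in Polygalae, where 16.6% of all tested genes were called (7.54% higher, 9.03% lower). Hydrolases made up 15 of the calls, 2 higher and 13 lower (median log2 fold change -0.20, against 0.013 over all tested genes). NEU1 read 455.3, 473.9 and 483.1 CPM in Polygalae and 321.7, 342.6 and 313.8 CPM in Aucklandiae, with no overlap (log2 0.53 ± 0.05, adjusted p = 8.4e-13). CTSB went the other way, at 303.6, 302.1 and 307.1 CPM against 430.3, 429.8 and 416.3 CPM (log2 -0.48 ± 0.04, adjusted p = 8.6e-13). Both groups of libraries were again separate. PSAP and LIPA were lower in Polygalae by -0.36 ± 0.05 and -0.41 ± 0.06 on the log2 scale. LIPA read 81.44 ± 0.903 CPM in Polygalae and 108.5 ± 0.49 CPM in Aucklandiae, on either side of the vehicle's 97.14 ± 6.05 CPM. Among the other calls, ASAH1 was higher in Polygalae (0.38), as was M6PR (0.20), while LAMP1 (-0.12) and SCARB2 (-0.14) were lower. The last pair is thin: the LAMP1 call was lost without either of Polygalae replicates 1 and 2 (-0.10 and -0.12) or Aucklandiae replicates 1 and 2 (-0.12 and -0.10), and the SCARB2 call without Polygalae replicate 2 or 3 (-0.13 and -0.14) or Aucklandiae replicate 1 or 3 (-0.12 and -0.14). With no filter on low counts 12 genes were called.

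**Figure D3:**
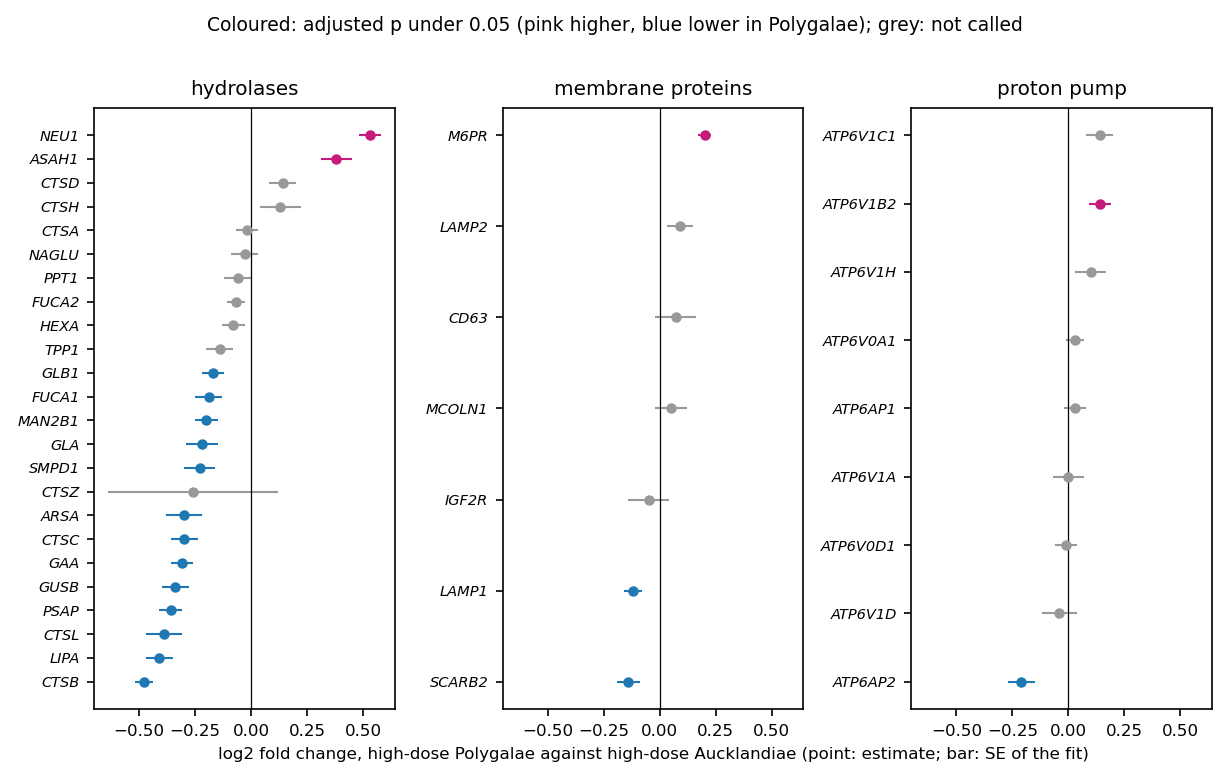
Log2 fold change of each lysosomal gene between the high doses of Polygalae and Aucklandiae (points, with the standard error of the fit as bars; 3 libraries each), in 3 panels by role. NEU1 (0.53) and ASAH1 (0.38) lie to the right, higher in Polygalae, while 13 hydrolases down to CTSB (-0.48) lie to the left; most membrane and pump genes lie near 0.

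Under high-dose Schisandrae 9 genes were called (5 up, 4 down), against 15.7% of all tested genes (8.40% higher, 7.25% lower). The median log2 fold change was 0.04 over the 40 genes and -0.006 over all tested genes. GLA read 20.55, 19.92 and 19.57 CPM against 14.22, 15.07 and 15.2 CPM, with no overlap (log2 0.43 ± 0.07, edgeR adjusted p = 8e-06). IGF2R read 685.1, 623.9 and 621.6 CPM against 488.5, 499 and 525.4 CPM, also apart (0.35 ± 0.09, adjusted p = 0.0047). CTSB, PSAP and FUCA2 rose by 0.27 ± 0.04, 0.25 ± 0.05 and 0.19 ± 0.04. NEU1 fell from 319 ± 15.4 to 263.6 ± 7.88 CPM (-0.28 ± 0.05, adjusted p = 1.2e-05), its lowest mean of the 20 groups, and SMPD1 from 18.82 ± 1.15 to 15.13 ± 0.161 CPM (-0.31 ± 0.07, adjusted p = 6e-04). The other falls were LIPA (-0.22) and TPP1 (-0.18), the tripeptidyl peptidase. Without vehicle replicate 1, and without Schisandrae high-dose replicate 1, neither the LIPA call (-0.16 and -0.20) nor the TPP1 call (-0.14 and -0.16) was made. The FUCA2 call was lost without the filter on low counts (0.18).

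Within the code set of Schisandrae, NEU1 was lower at the high than at the low dose (log2 -0.30 ± 0.05, adjusted p = 2.9e-06), while CTSB (0.25 ± 0.04), GLA (0.27 ± 0.07) and PSAP (0.15 ± 0.05) were higher. These were the 4 calls among the 40 genes, a share near the 9.99% of all tested genes that were called (5.19% higher, 4.80% lower). Same-numbered libraries of these doses deviated together, and with the replicate number as a block within code sets 8 genes were called. Without the 4 libraries low in GC-rich genes, which include low-dose replicate 2, 2 genes were called, NEU1 and CTSB, while GLA (0.24) and PSAP (0.14) were not. The PSAP call was also lost without high-dose replicate 1 (0.14) or 3 (0.15) and without low-dose replicate 1 or 2 (0.14 in both). High-dose Schisandrae against high-dose Liriopis gave 7 calls, 6 higher and 1 lower (10.9% of all tested genes called, 5.86% higher and 5.06% lower). CTSB (0.27), GLA (0.32) and PSAP (0.15) were higher and NEU1 (-0.27) lower. Without Liriopis high-dose replicate 1, 3 genes were called, and without its replicate 2 or Schisandrae replicate 3, 4; the PSAP call was lost in each of these.

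Few lysosomal genes were called under the other extracts. For Liriopis no gene was called by edgeR at the high, medium or low dose (0.0484%, 0.0303% and 0.0303% of all tested genes called), DESeq2 also called 0, and 6, 6 and 5 genes had an unadjusted p under 0.05. Under high-dose Longan FUCA2 (0.17 ± 0.04, adjusted p = 0.037) and GLA (0.26 ± 0.07, adjusted p = 0.043) were called higher, where 1.76% of all tested genes were called (0.920% higher, 0.842% lower). Under high-dose Zizyphi PSAP (0.20 ± 0.05), GLA (0.29 ± 0.07) and HEXA (0.18 ± 0.05) were called higher, where 4.42% were called (2.55% higher, 1.86% lower). GLA read 18, 16.19 and 18.87 CPM under high-dose Longan and 16.53, 19.26 and 18.29 CPM under high-dose Zizyphi. All 6 libraries lay above the vehicle's 14.22 to 15.2 CPM. Without vehicle replicate 1 none of the Longan and Zizyphi calls was made: the log2 fold changes were then 0.13 for FUCA2 and 0.23 for GLA under Longan, and 0.16 for PSAP, 0.25 for GLA and 0.15 for HEXA under Zizyphi. Under Longan, FUCA2 held only without vehicle replicate 2 and GLA only without Longan replicate 2, among the 6 fits that left out 1 library; FUCA2 lay between 0.13 and 0.18 and GLA between 0.21 and 0.28 in those that lost the call. Without Zizyphi replicate 2 or 3 neither GLA (0.22 and 0.27) nor HEXA (0.15 and 0.17) was called under Zizyphi, and HEXA was also lost without vehicle replicate 2 (0.18) or 3 (0.19).

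No lysosomal gene was called by edgeR between the high and low doses of Liriopis, Longan or Zizyphi (0.00%, 0.00605% and 0.351% of all tested genes called) or between high-dose Zizyphi and high-dose Longan (0.0424%). DESeq2 called 0 in these 4 comparisons too, and 1, 0, 3 and 0 genes had an unadjusted p under 0.05.

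Over the 12 medium and low doses 53 of 480 tests were called, against 3.65% of the 198204 tests over all genes, and 38 of the 53 were for Polygalae. At the medium and low doses of Polygalae 11.7% and 15.6% of all tested genes were called. The other 15 of the 53 calls fell in 4 of the 10 remaining comparisons. In those 4, between 2.09% and 5.52% of all tested genes were called. GLA, FUCA2 and PSAP were called higher at the low dose of Zizyphi (2.09% of all tested genes called, 1.14% higher and 0.951% lower) and of Aucklandiae and at the medium dose of Aucklandiae, and the same trio rose, with a fall of TPP1, at the medium dose of Schisandrae (2.98% called, 1.79% higher and 1.20% lower). At medium-dose Aucklandiae SMPD1 (-0.23 ± 0.07) and ATP6V0A1 (-0.15 ± 0.04) fell. Both calls were lost without any one Aucklandiae medium-dose library or without vehicle replicate 2, and in that last setting SMPD1 stood at -0.18 and ATP6V0A1 at -0.13. No gene was called by edgeR at low-dose Schisandrae, medium- or low-dose Longan or medium-dose Zizyphi (0.0727%, 0.0666%, 0.581% and 0.702% called), where DESeq2 called 0, 0, 1 and 1 and where 6, 5, 8 and 5 genes had an unadjusted p under 0.05. Without vehicle replicate 1 the 53 calls became 33, and none was left at low-dose Zizyphi, medium-dose Schisandrae or low-dose Aucklandiae. The log2 fold changes were then 0.24, 0.23 and 0.32 for GLA, 0.15, 0.11 and 0.18 for FUCA2 and 0.13, 0.13 and 0.16 for PSAP, and -0.18 for TPP1 at medium-dose Schisandrae.

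GLA and PSAP were each called higher in 11 of the 19 comparisons and FUCA2 in 10, more than any other lysosomal gene; 0.515% of all tested genes were called higher in at least 10. GLA lies on chromosome X from 101397803 to 101408012, PSAP on chromosome 10 from 71816298 to 71851375 and FUCA2 on chromosome 6 from 143494811 to 143511690, all on the minus strand (GRCh38, GENCODE 29). All 19 comparisons share the 3 vehicle libraries. The vehicle had the lowest mean of the 20 groups for PSAP (335.3 ± 18.6 CPM) and FUCA2 (136.4 ± 7.01 CPM), and only wortmannin was below it for GLA. Within the vehicle, replicate 1 was the lowest for all 3 genes, at 14.22, 315.5 and 128.6 CPM. The comparisons of the high with the low dose of an extract do not use the vehicle. In them GLA was called higher for Aucklandiae (0.55), Polygalae (0.29) and Schisandrae (0.27), and was not called for Longan (0.01), Zizyphi (0.02) or Liriopis (-0.05). PSAP was called for Aucklandiae (0.34) and Schisandrae (0.15), and not for Polygalae (-0.13), Longan (0.03), Zizyphi (0.04) or Liriopis (0.01). FUCA2 was called in none of the 6, at -0.07 to 0.11.

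The genes with an E-box in the promoter, which include the sorting receptor IGF2R, the channel MCOLN1, LAMP1, CD63, NEU1, CTSA, CTSD, GAA and the pump subunit ATP6V0D1, are described under the treatments with many calls. Under high-dose Polygalae 10.2% of all tested genes were called higher and 9.94% lower. Of these 9, under high-dose Polygalae, 6 were called higher and none lower, with a median log2 fold change of 0.23. Of the 20 with a promoter and no E-box, 3 were called higher and 5 lower (median -0.06). Under high-dose Aucklandiae the E-box genes had a median of 0.20 with 5 called higher, and the others 0.08 with 8 called higher. There 13.6% of all tested genes were called higher. Under wortmannin the medians were 0.14 and 0.15, and under high-dose Schisandrae 0.07 and 0.03. The 6 genes with the CLEAR core and the 23 without had medians of 0.17 and -0.03 under high-dose Polygalae. Of the 6, 4 were called higher and none lower, and of the 23, 5 were called higher and 5 lower. The medians of these 6 and 23 were 0.24 and 0.08 under high-dose Aucklandiae, with 5 and 8 called higher. Under wortmannin they were 0.15 and 0.14, with 2 of the 6 called higher. Of the 23, 12 were called higher and 3 lower there, where 16.4% of all tested genes were called higher and 16.2% lower. For the antioxidant response core, the 12 genes with it had a median of 0.03 under high-dose Polygalae and the 17 without 0.08. The E-box count rests on NEU1, CTSD, CTSA, LAMP1, IGF2R and MCOLN1, of which the LAMP1 call (log2 0.11 ± 0.04, adjusted p = 0.047) was lost without vehicle replicate 1 (0.08) or 2 (0.12), without any one Polygalae high-dose library (0.10 to 0.13) and with RLE scaling (0.10). These 29 genes hold none of CTSB, PSAP, ASAH1 and HEXA, and no test was made.

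**Figure D4:**
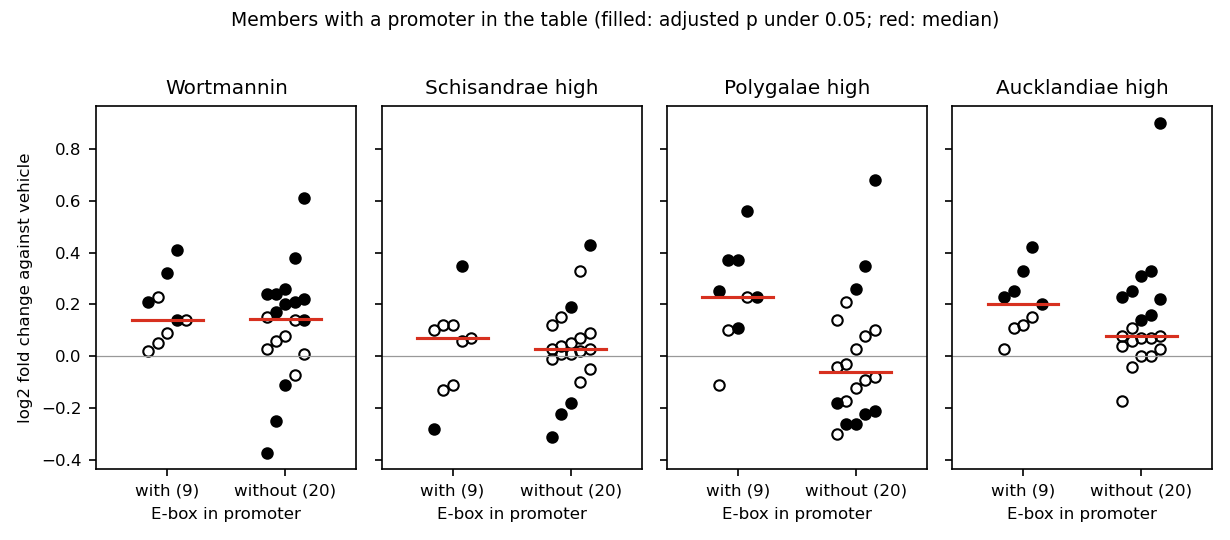
Log2 fold change against the vehicle of the 29 lysosomal genes with a promoter at hand, split by an E-box in the promoter (9 with, 20 without), in 4 treatments; filled points have an adjusted p under 0.05 and red bars are medians. Under high-dose Polygalae the medians are 0.23 and -0.06, and under wortmannin 0.14 and 0.15.

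Further genes of the pathway came from 4 lists of other hydrolases, other membrane and sorting proteins, other pump genes, and regulators and targets of the TFEB family. Under wortmannin 13 of 23 tested other hydrolases rose and none fell, 11 of 20 membrane and sorting genes rose, 2 of 12 pump genes rose, and of 18 regulators and targets 5 rose and 1 fell. Of all tested genes 16.4% were called higher and 16.2% lower, so the share of these pump genes called higher was that of all genes. HGSNAT, a lysosomal membrane acetyltransferase, rose by 0.48 ± 0.06 and WIPI1, an autophagy protein, by 0.80 ± 0.06. Under high-dose Polygalae 6, 9, 2 and 9 of these genes rose and 3, 0, 1 and 0 fell (10.2% of all tested genes called higher, 9.94% lower). CLCN7, the chloride-proton exchanger of the lysosome, rose from 75.71 ± 7.1 to 131.2 ± 5.52 CPM (0.79 ± 0.08, adjusted p = 1.9e-10). FLCN, folliculin, which acts on the Rag GTPases upstream of the TFEB family, rose from 25.44 ± 2.16 to 45.86 ± 0.783 CPM (0.85 ± 0.10), and the Rag GTPase RRAGC by 0.55 ± 0.07. SQSTM1, the autophagy receptor p62, rose from 197 ± 8.63 to 465.6 ± 7.93 CPM (1.24 ± 0.04, adjusted p = 1.4e-28). Under high-dose Aucklandiae 9, 9, 4 and 7 rose and 0, 1, 1 and 0 fell (13.6% of all tested genes called higher, 12.5% lower). Those that rose included SQSTM1 (1.05 ± 0.04), CLN3 (0.54 ± 0.06), NPC1, the cholesterol exporter (0.39 ± 0.05), and the membrane-sector pump subunit ATP6V0B (0.45 ± 0.07). ATP6V0E2, another membrane-sector subunit, fell (-0.37 ± 0.06). Under high-dose Schisandrae 2, 2, 1 and 5 rose and 2, 0, 2 and 1 fell (8.40% of all tested genes called higher, 7.25% lower), with NPC1 (0.47 ± 0.05) and SQSTM1 (0.78 ± 0.04) higher and GM2A, the GM2 activator, lower (-0.38 ± 0.05). For these other hydrolases, membrane and sorting genes and pump genes, the share called higher under high-dose Schisandrae was near that of all genes.

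Of the factors themselves, TFE3 rose under high-dose Aucklandiae, from 51.08 ± 2.96 to 69.97 ± 1.53 CPM (log2 0.45 ± 0.05, edgeR adjusted p = 1.7e-09), and fell under wortmannin to 45.13 ± 0.844 CPM (-0.18 ± 0.05, adjusted p = 0.0073). The wortmannin call was lost without vehicle replicate 3 (-0.14) and without the filter on low counts (-0.19). TFE3 was not called under high-dose Polygalae (50.81 ± 2.29 CPM), and the direct comparison of both high doses gave a log2 fold change of -0.46 ± 0.05 for Polygalae against Aucklandiae (adjusted p = 1.3e-09). TFEB stood at 17.3 ± 0.353 CPM in the vehicle and was called under high-dose Schisandrae only, among the 7 high-dose and wortmannin comparisons (14.36 ± 0.683 CPM, log2 -0.27 ± 0.08, adjusted p = 0.017); that call was lost without Schisandrae high-dose replicate 1 or 3 (both -0.25). MITF lay between 0.309 and 0.499 CPM in the same groups and was called in none of these comparisons; its largest log2 fold change there was 0.71 ± 0.38, under high-dose Liriopis.

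By role, the extremes over the 20 groups were as follows for the proteases. CTSB ranged from 297.9 CPM (low-dose Liriopis) to 478.5 CPM (wortmannin), CTSD from 380 (medium-dose Aucklandiae) to 513.7 (wortmannin) and CTSL, a cysteine endopeptidase, from 33.3 (high-dose Liriopis) to 47.84 (high-dose Aucklandiae). CTSC ranged from 87.48 (wortmannin) to 110.5 (high-dose Aucklandiae), CTSA from 346.1 (high-dose Schisandrae) to 466.2 (wortmannin) and TPP1 from 128.3 (medium-dose Schisandrae) to 175.3 (wortmannin). CTSH, an aminopeptidase, ranged from 99.81 (high-dose Aucklandiae) to 123.4 (medium-dose Schisandrae) and was never called. CTSZ, a carboxypeptidase, was never called either, at 0.165 (medium-dose Zizyphi) to 0.376 CPM (low-dose Schisandrae), so that changes were not detectable at this depth. Wortmannin thus gave the highest mean of 4 of these 8 proteases.

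Among the enzymes of glycans and glycolipids, GLA ranged from 11.49 CPM (wortmannin) to 27.64 (high-dose Aucklandiae), GLB1 from 65.88 (high-dose Polygalae) to 81.87 (wortmannin) and GAA, the acid glucosidase of glycogen, from 174.4 (high-dose Polygalae) to 216.9 (wortmannin). GUSB ranged from 34.98 (high-dose Polygalae) to 44.19 (high-dose Aucklandiae), HEXA from 68.06 (high-dose Liriopis) to 88.72 (wortmannin) and NEU1 from 263.6 (high-dose Schisandrae) to 470.8 (high-dose Polygalae). NAGLU, a glucosaminidase of heparan sulfate, ranged from 52.35 (high-dose Schisandrae) to 64.77 (low-dose Polygalae), FUCA1 from 26.12 (high-dose Polygalae) to 33.18 (wortmannin), FUCA2 from 136.4 (vehicle) to 171 (high-dose Aucklandiae) and MAN2B1 from 58.05 (high-dose Polygalae) to 75.23 (wortmannin). High-dose Polygalae was the lowest group for 5 of these 10 enzymes, GLB1, GAA, GUSB, FUCA1 and MAN2B1, and the highest for NEU1.

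Among the enzymes of sphingolipids and other lipids, ARSA ranged from 20.76 CPM (medium-dose Aucklandiae) to 33.01 (wortmannin), ASAH1 from 90.32 (high-dose Schisandrae) to 140 (high-dose Polygalae) and PSAP from 335.3 (vehicle) to 490 (high-dose Aucklandiae). SMPD1 ranged from 15.13 (high-dose Schisandrae) to 28.67 (wortmannin) and LIPA, which hydrolyses cholesteryl esters, from 81.44 (high-dose Polygalae) to 126.7 (wortmannin). PPT1, which removes fatty acids from proteins, was never called, at 145.7 (medium-dose Liriopis) to 167.4 CPM (medium-dose Aucklandiae), the narrowest range of the 40. It shares 23.4% of its exon length with the abundant CAP1 on the opposite strand, so that its values are uncertain.

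LAMP1 ranged from 219.2 CPM (medium-dose Liriopis) to 262.9 (high-dose Aucklandiae) and LAMP2 from 122.6 (medium-dose Liriopis) to 144.6 (medium-dose Polygalae), where it was called once (log2 0.18 ± 0.06, adjusted p = 0.028). SCARB2 ranged from 73.03 (vehicle) to 87.17 (wortmannin), and CD63, a tetraspanin of late endosomes, from 80.65 (high-dose Liriopis) to 105.4 (low-dose Polygalae), its single call (0.33 ± 0.09, adjusted p = 0.0057). The LAMP2 call was lost without vehicle replicate 2 (0.16) or 3 (0.17) or Polygalae medium-dose replicate 2 (0.16) or 3 (0.19), and the CD63 call without vehicle replicate 1 (0.27) or Polygalae low-dose replicate 2 (0.28). M6PR ranged from 102 (wortmannin) to 139.5 (high-dose Polygalae), IGF2R from 504.3 (medium-dose Longan) to 672.7 (high-dose Aucklandiae) and MCOLN1 from 10.89 (medium-dose Zizyphi) to 14.25 (high-dose Polygalae). None of the 7 was lowest under Polygalae or Aucklandiae.

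In the membrane sector of the pump, ATP6V0A1 ranged from 66.41 CPM (medium-dose Aucklandiae) to 85.27 (wortmannin), and ATP6V0D1 from 72.31 (high-dose Schisandrae) to 87.16 (low-dose Polygalae), without a call. In the cytosolic sector, the catalytic subunit ATP6V1A ranged from 78.24 (high-dose Zizyphi) to 97.02 (medium-dose Polygalae), its partner ATP6V1B2 from 70.21 (high-dose Schisandrae) to 87.32 (low-dose Polygalae) and ATP6V1C1 from 57.25 (high-dose Zizyphi) to 75.73 (medium-dose Polygalae). ATP6V1D ranged from 16.85 (medium-dose Liriopis) to 20.8 (high-dose Aucklandiae) and ATP6V1H from 21.23 (vehicle) to 28.96 (high-dose Polygalae). The accessory proteins ATP6AP1 and ATP6AP2, the latter also known as the prorenin receptor, ranged from 124.2 (low-dose Liriopis) to 147.1 (wortmannin) and from 40.84 (vehicle) to 48 (high-dose Aucklandiae). A dose of Polygalae was the highest group for 5 of the 9 pump genes.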

How the data were processed

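The values are expected counts (estimated reads per gene, not always whole), deposited by the authors as 1 table for all libraries. RSEM 1.3.3, STAR 2.7.3a, Trim Galore 0.6.5 and FastQC 0.11.9 stand in the submitters' processing notes, with GRCh38 and hg38 as builds. The strand setting and annotation release were not given in the sources used here. A directional mRNA kit was used, per the labels. Of 60675 gene IDs, 57055 matched a symbol and GENCODE 29.

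Counts were rounded (10.32% of values were not whole). The 60 libraries were fitted together with a term per group (R 4.3.3, edgeR 4.0.16, limma 3.58.1: filterByExpr, TMM factors 0.92 to 1.08, quasi-likelihood test, 2-sided, Benjamini-Hochberg over 16517 genes, threshold 0.05). Untested genes held 0.0532% of counts. The median log2 fold change of all tested genes stayed within 0.0128 of 0 in the 28 comparisons. Groups came from the titles. In simulated counts for high-dose Aucklandiae against the vehicle (16441 genes), 44% of 1.25-fold, 84% of 1.5-fold and 96% of 2-fold changes were called, with 13 false calls, so changes near 1.25-fold can be missed. In this simulation 50 genes were changed at each fold and all others kept the vehicle's mean. In the data 26.1% of all tested genes were called, so the shares called there may differ.

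The genes, lists and tests were chosen with earlier results of these data known. In wortmannin and high-dose comparisons, the called genes named were up to 6 hydrolases, 3 membrane and 4 pump genes of smallest p, with the 2 largest changes given by library; other comparisons name up to 4, and each other list up to 3. Genes outside this rule that are named were chosen after their values were seen. Alternatives were RLE scaling, no filter, DESeq2 1.42.0, the 6 libraries alone, a replicate block (also within code sets), each library left out and, added after seeing the data, leaving out 4 libraries by GC slope. Replicate numbers come from the titles. Same-numbered libraries deviated together, with r over 0.1 for all 3 pairs, in high- against low-dose Schisandrae (0.44, 0.17, 0.38), high- against low-dose Zizyphi (0.38, 0.58, 0.21) and low-dose Liriopis against the vehicle (0.56, 0.34, 0.25) over 9243 genes of at least 10 CPM. No other comparison met this. Values of some genes on the marker and pathway lists are not reported here.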

Additional observations from a re-analysis of the deposited data

How the results depend on the processing

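Of 185 calls of lysosomal genes in the 28 comparisons, DESeq2 kept 183, RLE scaling 181, the replicate block 183, no filter 130, the 6 libraries alone 135 and leaving out the 4 libraries low in GC-rich genes 146; none was reversed. 112 held without each library in turn. With the replicate number as a block within code sets, all 53 calls of the comparisons within sets held. High- against low-dose Schisandrae then gave 8 calls where the fit without this block gave 4. In high- against low-dose Zizyphi, whose libraries also pair, the block left the count at 0. Low-dose Liriopis against the vehicle, the other comparison whose libraries pair, crosses code sets and was not fitted with this block. With no filter, high-dose Longan gave 0 calls (2 in the fit reported), Polygalae high against low 2 (7) and high-dose Polygalae against high-dose Aucklandiae 12 (20). With the 6 libraries alone, high-dose Longan and Zizyphi gave 0 (2 and 3), Polygalae high against low 4 (7), Aucklandiae high against low 9 (15) and the 12 medium and low doses 23 (53). Without the 4 libraries, high-dose Longan and Zizyphi gave 0, Schisandrae high against low 2 and the 12 lower doses 33. Leaving out 1 library at a time gave 0 to 1 calls for high-dose Longan, 0 to 3 for high-dose Zizyphi, 3 to 6 for Polygalae high against low and 3 to 7 for high-dose Schisandrae against high-dose Liriopis; for the 12 lower doses it gave 33 (without vehicle replicate 1) to 54 calls. The number of all genes called for high-dose Liriopis was 8 in the fit reported, 55 with DESeq2 and 515 with no filter. The cause of these shifts was not tested. The smallest changes simulated were often missed with 3 libraries per group.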
